A study of Mus musculus with 4 samples.

Results

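The genes described here encode CTCF, the cohesin complex and the proteins that load, hold and release cohesin. The 10 genes, of 21323 protein-coding genes measured in the series, were taken as a list by name: Ctcf, Smc1a, Smc3, Rad21, Stag1, Stag2, Nipbl, Mau2, Wapl and Pds5b. For each gene, peaks were taken whose summit, the position of highest signal, lay within 10 kb of the gene body in GRCm38, the assembly named mm10. A start site is a peak with its summit within 1 kb of a transcription start; the other sites lie in the gene body or in the flanks.

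CTCF and RAD21 were mapped by ChIPmentation, in which Tn5 transposase adds sequencing adapters to immunoprecipitated chromatin on the beads, in pooled mouse gastruloids 96 h after aggregation. Gastruloids are aggregates of embryonic stem cells that elongate in culture. CTCF was mapped in the HoxB genotype Del/Del(i9-13):Ins(CBS5-10), called InsCBS5-10, in the same genotype with a further Del(CBS7-10), called DelCBS7-10, and in wild type. RAD21 was mapped in InsCBS5-10, and a further RAD21 list is known as wild type at 96 h only from its own deposited name and peak names, with no sample record among those used here. Per the labels, both mutants carry a deletion of HoxB on 1 copy of chromosome 11 and the i9-13 deletion with the insertion on the other, so every edit lies on chromosome 11, and none of the 10 genes does. The 4 samples are 1 library per group, and how many libraries lie behind the wild-type RAD21 list is not stated, so no difference between lists was tested or checked in a replicate.

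The CTCF lists held 34499 peaks in InsCBS5-10, 36589 in DelCBS7-10 and 47931 in wild type, and the RAD21 lists held 19610 in InsCBS5-10 and 59484 in wild type. Read depth is unknown from these files, and a site without a peak in a list is a site not called, which does not show that the protein was absent. The wild-type RAD21 peaks had a median width of 480 bp, against 301 bp in InsCBS5-10 RAD21. The value given for a peak is the authors' fold enrichment, the ratio of summit signal to background signal nearby, taken within each library. It ranks peaks within a list, and its percentile gives the share of that list's peaks at or under it.

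Cohesin is a ring of Smc1a, Smc3 and Rad21 with a Stag subunit bound to it. It is loaded on chromatin with the help of Nipbl and Mau2, extrudes loops of DNA, and is held up at sites where CTCF is bound. Wapl releases the ring, and Pds5 proteins bind it and take part in its release and its pausing.

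The promoter of Pds5b is shown first because its CTCF call differs between lists. Those of Mau2 and Wapl are shown beside it because RAD21 was called there without CTCF. The sequences are RefSeq's for GRCm38.p6 and run from 250 bases before to 50 bases after the annotated start, 5′ to 3′ on the strand of the gene. Pds5b lies at chr5:150673577-150673876 on the plus strand, Mau2 at chr8:70042685-70042984 on the minus strand and Wapl at chr14:34673678-34673977 on the plus strand. Capitals mark a match to the CTCF core CCNNNAGNNGGC, searched on both strands.
Pds5b: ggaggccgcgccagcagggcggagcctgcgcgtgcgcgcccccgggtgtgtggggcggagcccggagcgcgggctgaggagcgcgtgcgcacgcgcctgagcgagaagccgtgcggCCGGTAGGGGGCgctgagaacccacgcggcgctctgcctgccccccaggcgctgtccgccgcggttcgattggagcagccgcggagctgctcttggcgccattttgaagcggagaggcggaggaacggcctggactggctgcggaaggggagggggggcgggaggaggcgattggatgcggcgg
Mau2: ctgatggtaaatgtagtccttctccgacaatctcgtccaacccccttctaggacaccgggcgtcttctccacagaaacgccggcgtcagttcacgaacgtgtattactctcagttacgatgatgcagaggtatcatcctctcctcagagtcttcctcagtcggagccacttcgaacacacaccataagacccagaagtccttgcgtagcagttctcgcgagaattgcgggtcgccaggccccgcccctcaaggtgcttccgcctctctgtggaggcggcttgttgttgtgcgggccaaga
Wapl: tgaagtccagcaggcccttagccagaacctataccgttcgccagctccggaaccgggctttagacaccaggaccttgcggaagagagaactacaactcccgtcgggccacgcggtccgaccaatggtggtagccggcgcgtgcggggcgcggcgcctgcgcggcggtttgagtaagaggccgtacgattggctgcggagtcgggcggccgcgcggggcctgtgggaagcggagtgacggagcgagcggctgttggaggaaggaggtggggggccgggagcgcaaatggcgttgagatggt

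The Pds5b promoter held the core at bases 117 to 128, chr5:150673693-150673704, in the orientation of the gene. Counted from the nearest base of the core, the CTCF summit lay 58 bp away in InsCBS5-10 and 9 bp away in wild type. The RAD21 summit lay 4 bp away in InsCBS5-10 and 6 bp away in wild type. Mau2 and Wapl, at bases 110 and 112 of their windows, had a summit in the wild-type RAD21 list and in no other. The core was found in no other promoter window of the 7 genes present in the promoter table, which does not hold Rad21, Stag2 and Nipbl. The CTCF start summits of Ctcf, Smc3 and Stag1 lay outside these windows. The core occurred in 9.89% of 20725 promoters of protein-coding genes, in 39.2% of the 1261 with a wild-type CTCF summit in the window, and in 7.99% of the 19464 without one. The core letters were chosen after the Pds5b promoter had been read, and a match is a description of the sequence only.

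Across the 10 genes there were 29 CTCF sites, 5 at starts, 17 in gene bodies and 7 in flanks. Of these, 14 were called in all 3 CTCF lists, 4 in 2 lists and 11 in 1 list, of which 8 were in wild type only. In the whole series 27596 sites were called in all 3 lists, and those in 1 or 2 lists were not counted. These counts therefore have no background share, and the wild-type list is the longest. The sites in 1 list were weak, with fold enrichments of 2.67 to 4.75 and percentiles of 3.4 to 41.4. At the 14 shared sites the summits of the lists fell within 15 to 78 bp of each other (median 40 bp). By list there were 18 sites in InsCBS5-10, 17 in DelCBS7-10 and 26 in wild type. The InsCBS5-10 list called 17 of the 26 wild-type sites, against 63.2% of all wild-type peaks, and DelCBS7-10 called 15 of 26, against 65.8%. Both shares lie near those of the whole list.

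At starts the genes held more CTCF calls than protein-coding genes in general. A CTCF start summit was called at 5 of 10 genes in InsCBS5-10, 4 of 10 in DelCBS7-10 and 5 of 10 in wild type, against 11%, 13.7% and 17.1% of 21323 protein-coding genes in the same lists. The 5 genes are Ctcf, Smc3, Stag1, Stag2 and Pds5b, and the call missing from DelCBS7-10 is that of Pds5b. With only peaks of −log10 q 5 or more, the InsCBS5-10 count was 3, as Ctcf (4.19) and Pds5b (3.94) fell under that limit. The share of all protein-coding genes under that limit was not counted. In the wider window, a CTCF summit was called for 7, 6 and 8 of the 10 genes in InsCBS5-10, DelCBS7-10 and wild type, against 62.9%, 65.3% and 71.4%, which is close to the background. The genes are long, with a median of 61.0 kb against 17.3 kb over all protein-coding genes. The number of summits per 100 kb was lower than the background, at 1.41 against 2.09 in InsCBS5-10, 1.34 against 2.22 in DelCBS7-10 and 2.04 against 2.77 in wild type. This density is pooled over all windows, so long genes weigh most. Stag1 alone spans 360.8 kb and held 3 wild-type CTCF summits. Pds5b was listed with the calls at its start known, so its start calls were fixed by that choice and add nothing to the comparison. The genes were chosen by name with earlier results of these data known, so the counts over all 10 are descriptions and no test.

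**Figure D1:**
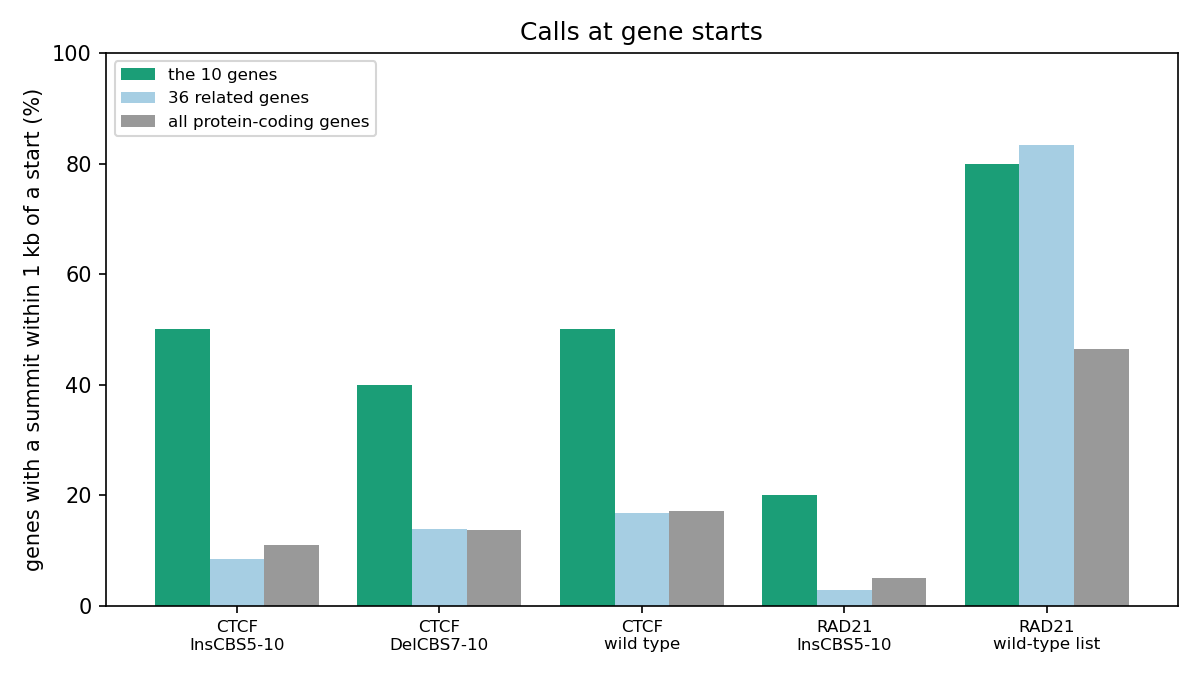
Percent of genes with a summit within 1 kb of a start, by list, for the 10 genes, 36 related genes and all protein-coding genes. In the CTCF lists the 10 genes stand at 40.0% to 50.0% and the related genes at 8.33% to 16.7%, while in the wild-type RAD21 list both stand above the 46.5% of all genes. The 10 genes include Pds5b, listed with its start calls known. The 10 genes and the related genes were chosen with earlier results of these data known, so the bars are descriptions.

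Ctcf, which encodes the DNA-binding protein itself, had 3 CTCF sites, each called in all 3 CTCF lists. Its start site lay 279 bp downstream of the annotated transcription start, with a fold enrichment of 4.43 in InsCBS5-10, 5.43 in DelCBS7-10 and 9.53 in wild type. These values stand at percentiles 30.1, 52.3 and 80.5 of their lists, so the site was among the weaker peaks of InsCBS5-10 and the stronger peaks of wild type. The site at +24.8 kb in the gene body had 4.62 in InsCBS5-10, 6.25 in DelCBS7-10 and 4.47 in wild type, with no RAD21 peak. The flanking site, 2985 bp beyond the gene and 103 bp from Carmil2, was the strongest of the 3, with 6.88 in InsCBS5-10, 9.09 in DelCBS7-10 and 11.27 in wild type. RAD21 was not called at any Ctcf site in InsCBS5-10, and was called at the start (3.59) and the flanking site (7.88) in wild type.

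Among the ring genes, Smc3 and both Stag genes carried CTCF at their starts, and Smc1a and Rad21 had no CTCF site at all within 10 kb. Smc3, an ATPase arm of the ring, had its start site 457 bp upstream of the start, with 9.58 in InsCBS5-10, 8.20 in DelCBS7-10 and 14.92 in wild type. This site was at percentile 89.6 or above in each list. A second shared Smc3 site lay 3109 bp beyond the gene end, with 8.30 in InsCBS5-10, 7.29 in DelCBS7-10 and 13.32 in wild type. It also had the strongest RAD21 peak of the 10 genes in InsCBS5-10, 9.09, against 10.04 in wild type. The start site had no RAD21 peak in InsCBS5-10 but the strongest of the 10 genes in wild type, 10.41. A weak body site at +37.8 kb was called in wild type only (4.07).

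Stag1 and Stag2 encode alternative subunits that bind the ring and contact CTCF. The Stag1 start site, 137 bp downstream of the annotated transcription start, had 9.39 in InsCBS5-10, 8.70 in DelCBS7-10 and 15.62 in wild type, at percentiles 92.9, 92.7 and 98.7. RAD21 was called there in wild type only, at 6.49. The Stag2 site, 38 bp outside the lower-coordinate end of the gene, had 8.58 in InsCBS5-10, 5.58 in DelCBS7-10 and 15.79 in wild type, at percentiles 88.1, 55.2 and 98.8. RAD21 was called at Stag2 in both genotypes, with 3.83 in InsCBS5-10 and 6.03 in wild type. The strand of Stag2 was not in the tables used, so both of its ends were taken as possible starts.

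Stag1 is the longest of the genes (360.8 kb) and had 4 body sites in its distal part. The site at +273.8 kb was in every list, with CTCF at 5.88 in InsCBS5-10, 4.29 in DelCBS7-10 and 6.71 in wild type and RAD21 at 4.11 in InsCBS5-10 and 5.67 in wild type. Its neighbour at +267.1 kb was not called in InsCBS5-10, and had 6.05 in DelCBS7-10 and 6.88 in wild type. A peak of 3.09 at +207.6 kb in InsCBS5-10 and a peak of 3.14 at +254.9 kb in DelCBS7-10 appeared in those lists alone, at percentiles 6.2 and 6.9. A RAD21 peak without CTCF lay at +55.3 kb of Stag1 (3.29) and another at −4.2 kb from the upper-coordinate end of Stag2 (4.93), both in wild type only.

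Smc1a, the partner of Smc3 in the ring, had a RAD21 peak of 4.36 in the wild-type list 339 bp inside its start, in sequence that also belongs to Ribc1, so the call cannot be given to either gene alone. Rad21, the subunit that closes the ring and the protein precipitated in the RAD21 libraries, had neither CTCF nor RAD21 at its ends. Its only peak was a RAD21 call of 2.86 in wild type, 4031 bp below the gene, at percentile 12.6.

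The cohesin loader genes differed in their CTCF sites. Nipbl had 7 CTCF sites, the most of the 10 genes, and none within 1 kb of either gene end. Its strand was not in the tables used, and a start inside the gene body could not be placed, so distances are given from the upper-coordinate end. The site at −14.1 kb had the highest fold enrichment of any member site in both mutants, 10.84 in InsCBS5-10 and 10.12 in DelCBS7-10, against 10.74 in wild type. RAD21 was called there at 8.51 in InsCBS5-10 and 6.71 in wild type. The site at −19.8 kb, which also lies in LOC102634078, had 5.69 in InsCBS5-10, 4.17 in DelCBS7-10 and 11.56 in wild type. It thus stood at percentiles 52.1, 27.0 and 90.6, while its neighbour stood at 97.3, 97.5 and 86.9.

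The other shared Nipbl sites were weaker. The site at −82.9 kb had 4.04 in InsCBS5-10, 3.63 in DelCBS7-10 and 5.48 in wild type, and the site at −58.8 kb had 4.66, 3.95 and 3.48 in the same lists. Weak calls at −59.9 kb (2.67), −41.3 kb (2.84) and 1118 bp beyond the upper end (2.84), were in wild type only. Mau2, the partner of Nipbl in loading, had no CTCF peak in either mutant. In wild type it had 4.75 in a flank 1575 bp below the gene and 3.31 within the neighbouring gene Sugp1, both with RAD21 in wild type (3.02 and 4.25). The RAD21 peak at the Mau2 start shown above (3.21) overlaps Sugp1 as well, so the 2 genes cannot be told apart there.

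Wapl, which opens the ring, had 1 CTCF site called in more than 1 list, 5194 bp beyond its end, with 4.56 in InsCBS5-10 and 4.47 in wild type and no call in DelCBS7-10. A body site at +6.5 kb (2.90) was in wild type only. RAD21 without CTCF was called in wild type at −139 bp from the Wapl start (2.83) and 718 bp beyond the gene (3.62). The summit at the start also lies in 5830448L01Rik, so that call cannot be given to Wapl alone.

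Pds5b had 6 CTCF sites, and its start was the only start site of the 5 not called in every CTCF list. Its start peak, with its wild-type summit at −114 bp, had 4.27 in InsCBS5-10, was not called in DelCBS7-10 and had 16.99 in wild type. In InsCBS5-10 the peak ran over chr5:150673554-150673827, at percentile 27.4 and −log10 q 3.94, and in wild type over chr5:150673474-150673920, at percentile 99.4 and −log10 q 127. The wild-type value was the highest of all 26 wild-type sites of the 10 genes. RAD21 was called at the start with 4.93 in InsCBS5-10 and 7.57 in wild type, at percentiles 30.6 and 83.7. The start also lies in the predicted gene Gm40353.

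Pds5b was chosen with the difference at its start known, so the counts that follow describe where it stands and are no test of it. Of the 480 wild-type CTCF peaks at or above the 99th percentile, 17 had no DelCBS7-10 peak, which is 3.54%. Of the same 480, 3 were called in InsCBS5-10 at or under percentile 27.4, which is 0.625%. The Pds5b start is in both counts, and 27.4 is its own percentile. Peaks on chromosome 11 were not left out of these counts. Of 2223 protein-coding genes with a CTCF start summit in InsCBS5-10 and wild type, 131 lacked it in DelCBS7-10, which is 5.89%. Outside chromosome 11 there were 124 such genes, and Pds5b had the strongest wild-type peak. Next were Cdh16, with 11.55 in InsCBS5-10 and 16.35 in wild type, Snrpe (4.97 and 13.08), Prr5l (7.46 and 12.15), E130309D02Rik (7.39 and 11.91) and Neu1 (3.83 and 11.33). At Cdh16 and Prr5l a DelCBS7-10 peak overlapped the wild-type peak with its summit over 1 kb from the start. At Pds5b, Snrpe, E130309D02Rik and Neu1 none did. The counts of 131 and 124 genes therefore include genes where a DelCBS7-10 peak overlaps the wild-type peak.

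The remaining Pds5b sites did not all follow the start. The flank site at −7969 bp, 110 bp from N4bp2l2, was in every list, with CTCF at 7.79 in InsCBS5-10, 7.77 in DelCBS7-10 and 14.30 in wild type and RAD21 at 5.45 in InsCBS5-10 and 8.54 in wild type. The body site at +44.2 kb was in all 3 CTCF lists, with 6.38 in InsCBS5-10, 4.63 in DelCBS7-10 and 6.83 in wild type. The body site at +29.1 kb, like the start, was missing from DelCBS7-10, with 5.64 in InsCBS5-10 and 5.46 in wild type. Weak peaks lay at +128.7 kb in DelCBS7-10 only (3.48) and at +69.1 kb in wild type only (2.93), and a RAD21 peak without CTCF at +98.9 kb in wild type (3.33).

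**Figure D2:**
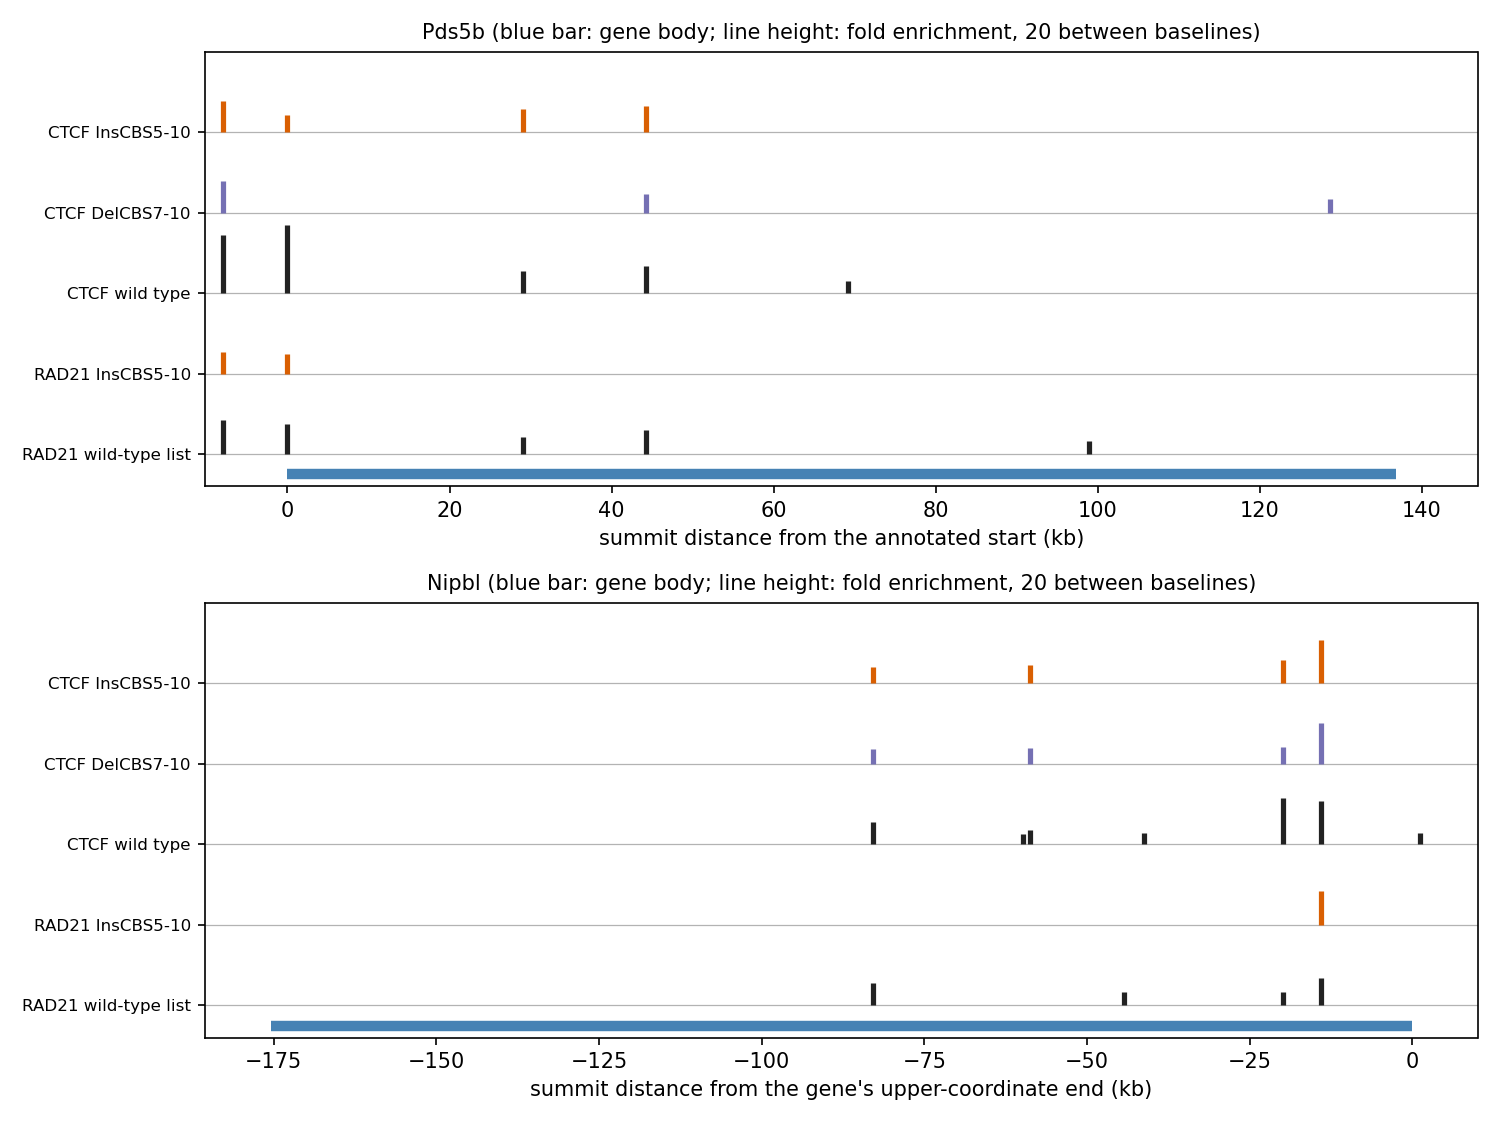
Called summits along Pds5b and Nipbl, by list, against distance in kb from the annotated Pds5b start or from the upper-coordinate end of Nipbl, with line height giving fold enrichment. At the Pds5b start the line is 4.27 high in InsCBS5-10, absent in DelCBS7-10 and 16.99 high in wild type, while the Nipbl site at −14.1 kb is near the same height in the 3 CTCF lists. Height ranks peaks within a list only, and this Nipbl site stands at percentile 97.3 in InsCBS5-10, 97.5 in DelCBS7-10 and 86.9 in wild type.

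**Figure D3:**
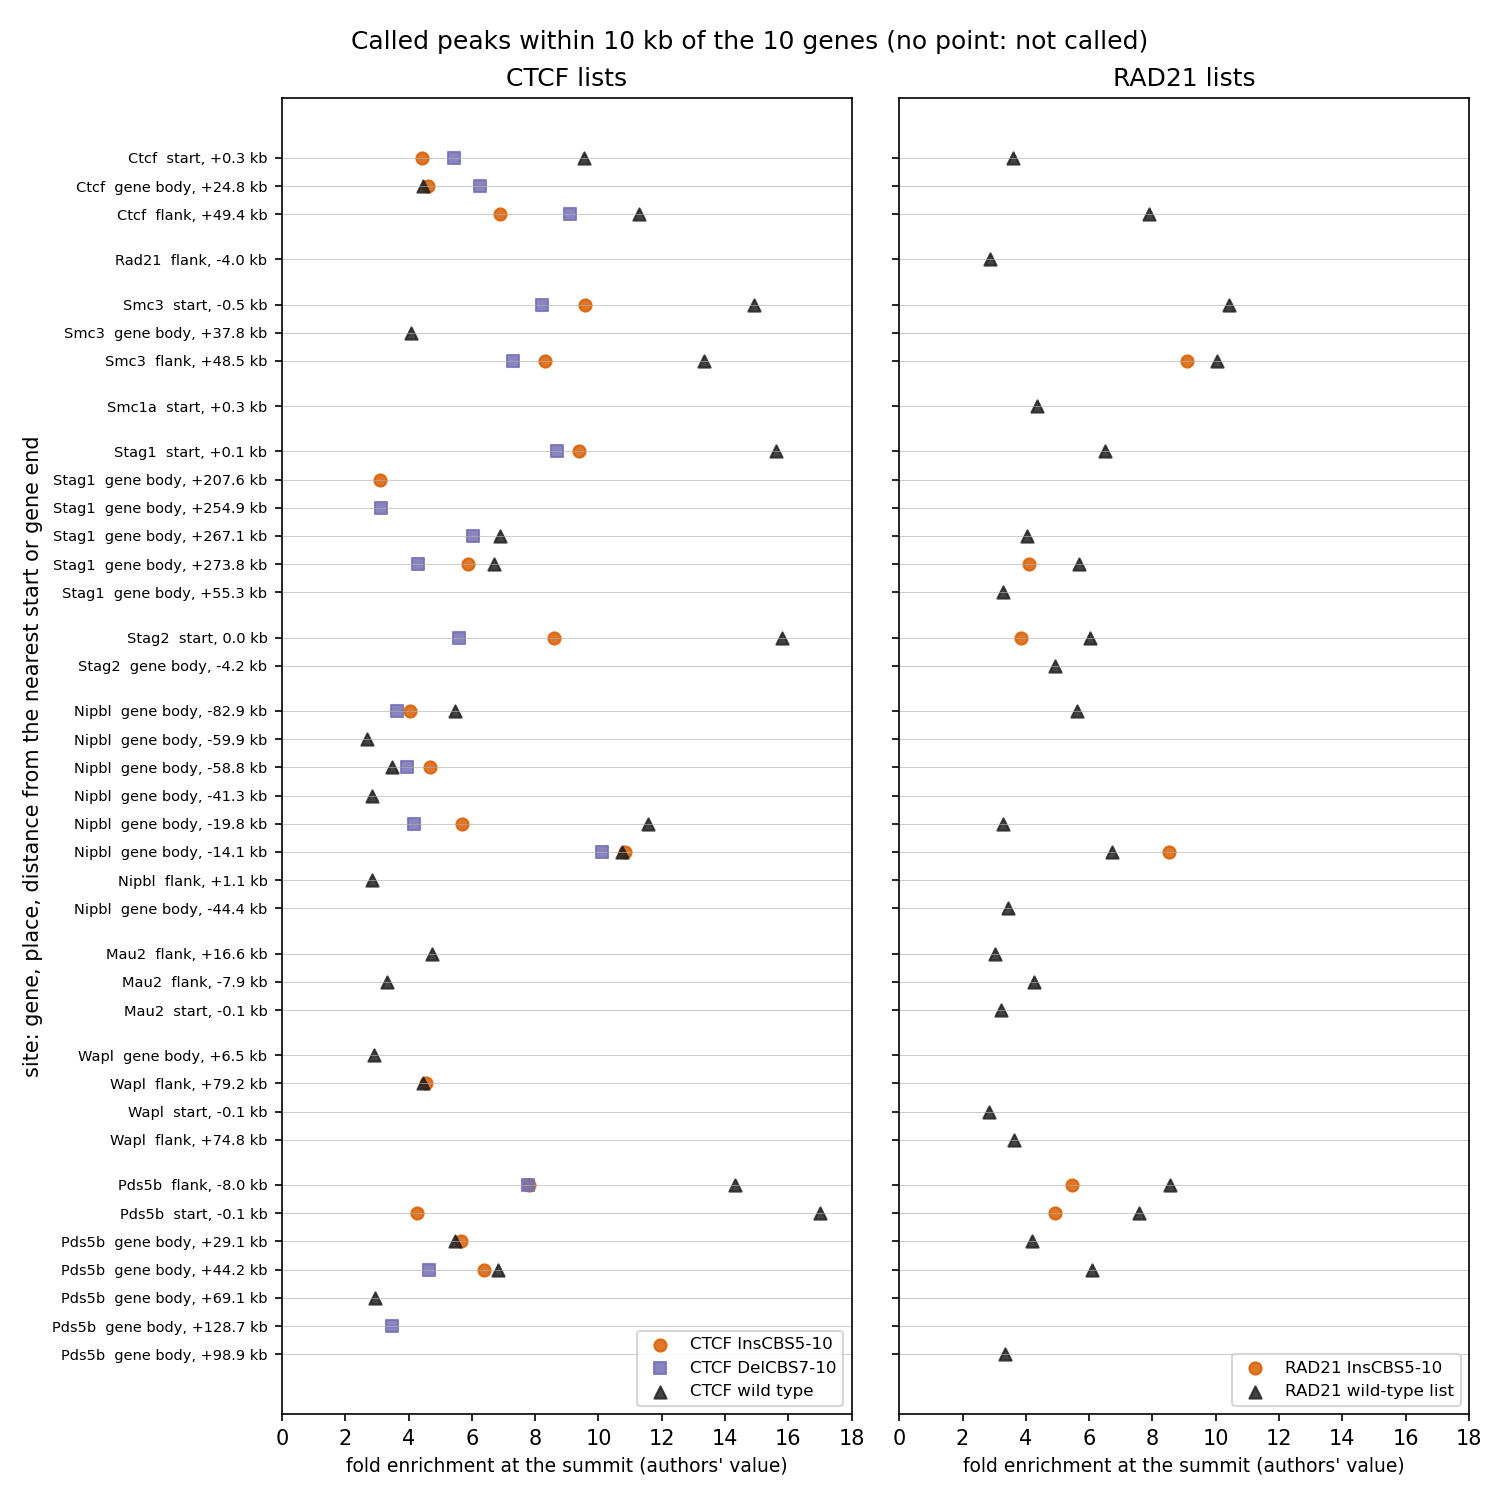
Fold enrichment of every called peak within 10 kb of the 10 genes, CTCF lists on the left and RAD21 lists on the right, with no point where a list has no peak. Distances are from an annotated start or, for Rad21, Stag2 and Nipbl, from a gene end, and the start sites of Smc3, Stag1, Stag2 and Pds5b hold the 4 highest wild-type CTCF values.

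Because the lists differ in length, strength was also compared within the 27596 CTCF sites called in all 3 lists, as a percentile of fold enrichment among those sites. The 14 shared sites of the genes had a median fold enrichment of 6.63 in InsCBS5-10, 5.92 in DelCBS7-10 and 11 in wild type, beside 6.17, 5.93 and 8.0 in the same lists over all shared sites. All 4 shared start sites ranked highest in wild type. Stag2 ranked at 85.1 in InsCBS5-10, 42.4 in DelCBS7-10 and 98.0 in wild type, and Ctcf at 17.4, 39.0 and 66.9 in the same lists. Smc3 (92.2, 86.2 and 96.9) and Stag1 (91.2, 90.4 and 97.8) were high in every list. Start sites in general behaved similarly, since 53.6% of the 2063 shared sites at protein-coding starts ranked highest in wild type and their median rank was 52.4 in InsCBS5-10, 55.4 in DelCBS7-10 and 69.6 in wild type.

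At the other 10 shared sites of the genes no list was generally highest. Wild type ranked highest at 4 of 10, against 31.5% of the 25533 other shared sites. The Nipbl site at −19.8 kb ranked at 41.0 in InsCBS5-10, 13.4 in DelCBS7-10 and 83.9 in wild type, and its neighbour at −14.1 kb at 96.7, 96.6 and 77.7. The Ctcf body site ranked at 20.8, 56.7 and 10.4 and the Ctcf flank site at 63.0, 92.8 and 81.8 in the same order of lists, so both were highest in DelCBS7-10. Sites of the same gene therefore differed in which list ranked them highest.

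**Figure D4:**
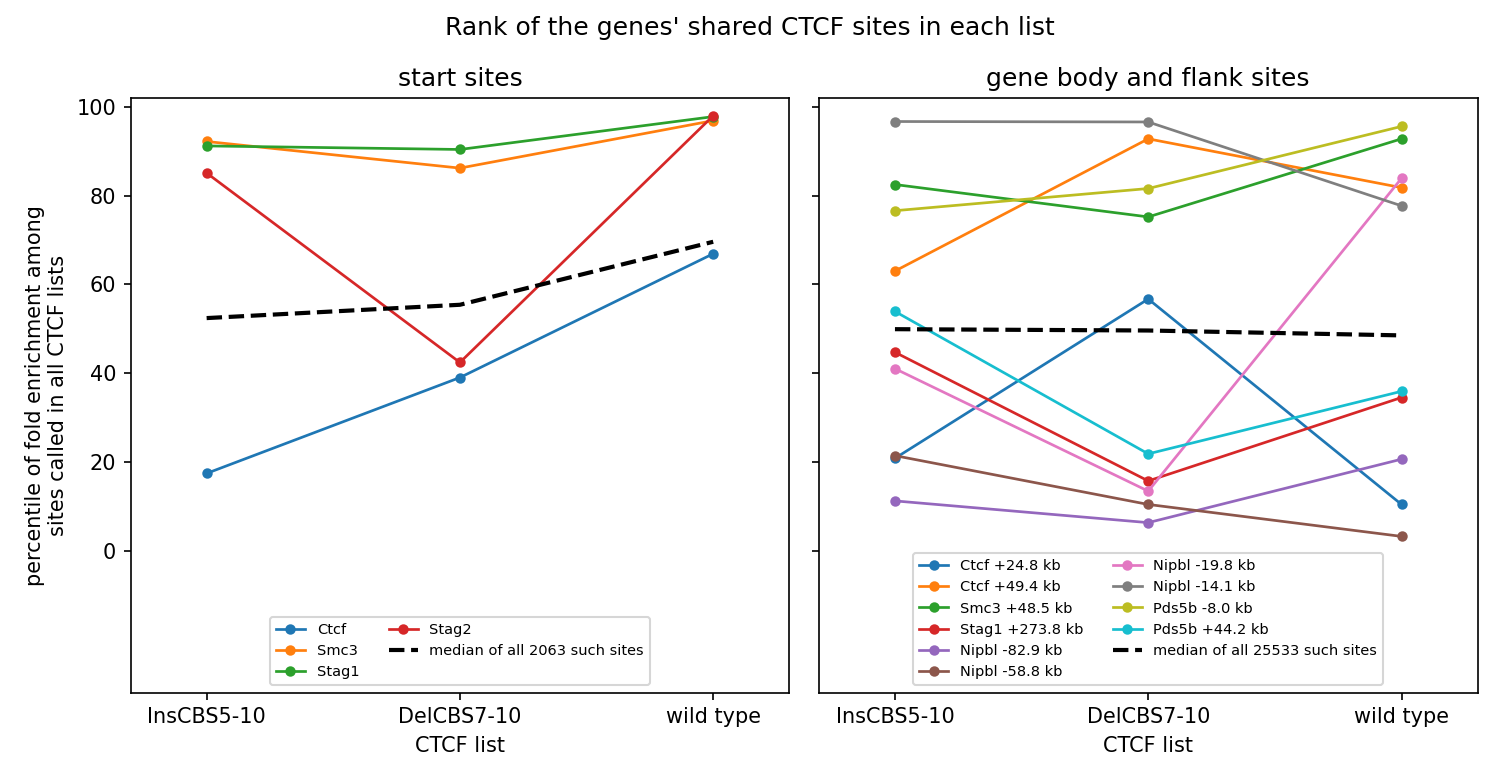
Percentile of fold enrichment among the 27596 CTCF sites shared by the lists, for the 4 shared start sites (left) and the 10 other shared sites (right) of the genes, with dashed lines for the median of all such sites. The start sites are highest in wild type, as is the median of all start sites (69.6), while lines cross among the other sites.

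RAD21 was called at 6 sites of the genes in InsCBS5-10 and at 26 in wild type, and all 6 were among the 26. This compares with 94.5% of all InsCBS5-10 RAD21 peaks found in wild type and 30.9% of wild-type RAD21 peaks found in InsCBS5-10. Start RAD21 calls were at 2 genes in InsCBS5-10 (Stag2 and Pds5b), against 4.98% of protein-coding genes, and at 8 genes in wild type, against 46.5%. Pds5b was listed with its start calls known, so its calls add nothing to this comparison. In the wider window RAD21 was called for 5 genes in InsCBS5-10 and 10 in wild type, against 45.9% and 79.8%. The density per 100 kb, pooled over windows as for CTCF, was 0.471 in InsCBS5-10 RAD21 against a background of 1.09, and 2.04 in wild-type RAD21 against 3.64.

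Of the 18 InsCBS5-10 CTCF sites, 6 overlapped a RAD21 peak of the same genotype, or 33.3% (exact Clopper-Pearson 95% interval 13.3% to 59.0%, which covers counting error only), against 48.2% of all InsCBS5-10 CTCF peaks. In wild type 17 of 26 did, or 65.4% (44.3% to 82.8%), against 68.7%. The intervals are wide and treat sites of the same gene as independent. Neither likeness to the whole list nor a difference from it is therefore read from them. The 6 sites with RAD21 in InsCBS5-10 had CTCF percentiles of 27.4 to 97.3 (median 83.6) and the 12 without it 6.2 to 93.7 (median 42.8), so the ranges overlapped. The strongest site without RAD21 was the Smc3 start. Of the 5 CTCF start sites, RAD21 was called at 2 in InsCBS5-10 and at 5 in wild type. The share of all CTCF start peaks with RAD21 was not counted. Over all protein-coding genes, RAD21 start calls were likewise fewer in InsCBS5-10 (4.98%) than in wild type (46.5%).

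RAD21 was called without CTCF at 9 sites, all in the wild-type list only, with fold enrichments of 2.83 to 4.93. Those at the starts of Smc1a, Mau2 and Wapl make 3 of 10 genes with a wild-type RAD21 but no wild-type CTCF start call, against 31.2% of protein-coding genes. For the 9 sites as a whole, the share of all RAD21 peaks without CTCF was not counted. The wild-type RAD21 list is also the longer, with 59484 peaks against 19610 in InsCBS5-10.

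Related genes were counted in 5 lists of other SMC complexes, cohesin regulators and insulator factors. Of 37 genes listed, 36 were measured, and Ddx5 was not because its position on the edited chromosome 11 is not that of mm10. A CTCF start summit was called at 3 of 36 in InsCBS5-10, 5 in DelCBS7-10 and 6 in wild type, near the shares of all protein-coding genes, and RAD21 at 1 in InsCBS5-10 and 30 in wild type. Esco1, an acetyltransferase of Smc3, Nsmce4a and Adnp had it in all 3 CTCF lists. None of the 8 condensin subunits and none of the 5 meiotic or paralogous genes had it in any list, and RAD21 was called in wild type at 8 of the 8 condensin genes and at 3 of the 5. Over all protein-coding genes these start calls were made at 11%, 13.7% and 17.1% in the CTCF lists of InsCBS5-10, DelCBS7-10 and wild type and at 46.5% in wild-type RAD21, so counts of 0 among so few genes are close to the CTCF background.

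Of the related genes, 4 had CTCF start calls in some lists only. Pds5a, the paralogue of Pds5b, was called in wild type alone (4.67), as was Nsmce3, a subunit of the SMC5/6 complex (3.61). Zfp143, a zinc finger protein, was called in DelCBS7-10 alone (3.20). Haspin, a kinase of mitotic chromatin, was not called in InsCBS5-10, and had 5.23 in DelCBS7-10 and 11.02 in wild type. Haspin lies on chromosome 11, where reads shared by the chromosome versions make the values not comparable with other chromosomes. The counts and percentages of the related genes include Haspin, and the only RAD21 start call among them in InsCBS5-10 is that of Haspin.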

How the data were processed

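Peak lists of 4 samples, 1 library per group, and a further RAD21 list without a sample record were used. Per the submitters' processing notes the authors used cutadapt 4.1 and MACS2 2.2.7.1 with mm10. For the aligner, control and caller options, nothing is stated in the sources used here. The deposited fold enrichment is a ratio within a library, and so are the authors' deposited −log10 p and −log10 q values. The lowest −log10 q was 1.3 in each list.

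Autosomal, X and Y peaks were kept, without the chromosome 11 version that lacks HoxB, and summits sharing an interval were collapsed to the strongest. Peaks overlapping by 1 bp or more were counted as the same site. Genes and starts came from RefSeq for GRCm38.p6. The promoter table held 7 of the 10 genes, and for genes it does not hold both gene ends were taken as starts. Genes beyond Hoxb13 on the edited chromosome 11 were left out. The genes and lists were chosen with earlier results of these data known. All 10 genes were named. Of the related genes, those named had a CTCF start summit in some CTCF lists only, with the 3 called in every CTCF list added after their values were seen. Of genes like Pds5b, the 5 with the strongest wild-type peak outside chromosome 11 were named. Alternatives were a −log10 q of 5 or more, summits within 100 bp, a window of 5 kb, a start distance of 500 bp and every summit counted on its own. Overlap and start calls were tested on simulated peaks. Python 3.11.15, pandas 2.3.3 and scipy 1.17.1 were used.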

Additional observations from a re-analysis of the deposited data

How the results depend on the processing

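Of 29 alternative values for 8 counts, 25 stayed within 1.5 times the count reported and 4 did not, all with −log10 q of 5 or more. Under that limit the CTCF start calls in InsCBS5-10 were 3 in place of 5, since the start peaks of Ctcf (−log10 q 4.19) and Pds5b (3.94) fell below it. DelCBS7-10 then held 11 sites in place of 17, the InsCBS5-10 CTCF sites with RAD21 were 3 in place of 6, and the wild-type sites found in both other CTCF lists were 9 in place of 14. The last count and its alternatives were added after seeing the data. Among the 17077 genes of the promoter table alone, CTCF start summits were called at 9.92% in InsCBS5-10, 12.5% in DelCBS7-10 and 16.0% in wild type, and RAD21 at 4.13% in InsCBS5-10 and 46.6% in wild type. No paired analysis was possible because each group has 1 library and the labels carry no replicate numbers. Depth is unknown, so depth and genotype cannot be told apart as sources of the lists' different lengths.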
